A study of Mus musculus with 96 samples.

Results

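Interferon response genes are the genes that a cell switches on when it meets an interferon, and 39 of them, named by symbol, were followed here across the 4 main cell types of the infarcted mouse heart. They are 39 of the 50982 annotated genes in the deposited quantifications, and all 39 were listed in every one of the 96 libraries. Male C57Bl/6J mice aged 12 to 14 weeks had the left anterior descending artery tied off for good, which causes myocardial infarction (MI), and hearts were taken 1, 3, 7, 14 and 28 days later, with unoperated mice as Day 0. From these hearts came cardiomyocytes (CM), spun down at low speed, endothelial cells (EC) on anti-CD144 beads, hematopoietic cells (HC) on anti-CD45 beads and fibroblasts (FB) by 40 min of plating. Each of the 24 groups had 4 libraries of ribosome-depleted total RNA, and each library held RNA pooled from 3 mice, or 2 where a mouse was lacking. The Day 0 mice had no sham operation, so MI and surgery cannot be told apart. The methods call the replicates both biological and technical, so the p-values measure the spread between these libraries.

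Interferons bind receptors that signal through Janus kinases. Type I interferons bring a transcription factor complex that holds Stat2 and Irf9 to a DNA element called ISRE, while interferon gamma acts through a second element called GAS. The induced genes sense foreign or misplaced nucleic acid (Ddx58, Ifih1, Dhx58, Zbp1, Ifi204), degrade or block RNA (the Oas and Ifit families), tag proteins (Isg15), restrict pathogens with GTPases (Gbp and Irg families) and call in T cells (Cxcl9, Cxcl10). In the infarcted heart, phagocytes that take up the debris of dead cells are a known source of type I interferon signaling. C57BL/6 mice carry defective Mx1 and Mx2 genes, so those transcripts report induction rather than a working protein.

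To show what these elements look like at the members the results turn on, 4 promoters are printed 5′ to 3′ on the strand of the gene, from RefSeq on GRCm38.p6, with 250 bases before and 50 after the start site. Capitals mark matches to the ISRE letters GAAANNGAAA or their reverse TTTCNNTTTC, or to the GAS letters TTCNNNGAA. Isg15 (chr4:156200769-156201068, minus strand) was higher at Day 3 in all 4 cell types and has 3 overlapping ISRE matches, each 6 bases after the last. Ifit3 (chr19:34583279-34583578, plus strand) has 2 ISRE matches that start 34 bases apart. Irgm1 (chr11:48871371-48871670, minus strand) and Irf1 (chr11:53769764-53770063, plus strand) were lower in FB at all 5 days after MI. Irgm1 has 2 overlapping ISRE matches, and Irf1 has a GAS match that starts 90 bases before the start site and no ISRE match.
Isg15: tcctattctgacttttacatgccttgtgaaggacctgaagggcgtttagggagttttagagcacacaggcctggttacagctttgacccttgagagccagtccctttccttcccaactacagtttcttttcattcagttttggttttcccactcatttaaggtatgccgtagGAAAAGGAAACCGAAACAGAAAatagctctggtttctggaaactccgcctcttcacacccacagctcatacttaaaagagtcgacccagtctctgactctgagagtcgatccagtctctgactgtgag
Ifit3: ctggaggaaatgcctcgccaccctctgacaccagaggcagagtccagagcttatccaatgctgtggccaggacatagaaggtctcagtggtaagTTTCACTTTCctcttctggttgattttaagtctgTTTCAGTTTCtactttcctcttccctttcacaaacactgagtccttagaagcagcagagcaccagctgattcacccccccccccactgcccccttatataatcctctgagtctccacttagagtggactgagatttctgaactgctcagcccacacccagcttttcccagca
Irgm1: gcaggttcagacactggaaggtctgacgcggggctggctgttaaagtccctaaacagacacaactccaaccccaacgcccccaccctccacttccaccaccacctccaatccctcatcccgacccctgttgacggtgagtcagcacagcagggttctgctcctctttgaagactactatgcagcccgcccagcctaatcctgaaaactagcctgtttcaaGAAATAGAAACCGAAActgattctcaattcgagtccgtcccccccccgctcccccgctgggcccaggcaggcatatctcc
Irf1: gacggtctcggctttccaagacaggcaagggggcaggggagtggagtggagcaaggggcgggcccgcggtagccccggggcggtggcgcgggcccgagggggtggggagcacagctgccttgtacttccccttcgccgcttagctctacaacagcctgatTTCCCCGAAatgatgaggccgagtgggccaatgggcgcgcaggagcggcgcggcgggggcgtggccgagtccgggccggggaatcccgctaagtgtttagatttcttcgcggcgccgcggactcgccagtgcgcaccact

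Of the 39 members, 30 had a promoter in the table, and 18 of those 30 held an ISRE match on either strand, against 3.99% of 27025 genes. A GAS match lay in 7 of the 30, against 9.55% of genes. Mx1, Mx2, Oas2, Usp18, Dhx58, Ifi204, Rtp4, Zbp1 and Parp14 had no entry. A match is a description of letters and not evidence of a bound factor.

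Reads assigned to genes numbered 13490761 to 55693118 per library in CM, 12409545 to 33775068 in EC, 2663817 to 36506156 in FB and 16170222 to 40346463 in HC. Of the marker sets of the 4 cell types, the intended one led at Day 0 in CM, EC and FB, but CM markers (Tnnt2, Tnni3, Nppb, Actc1) summed to 1614 to 2640 CPM (counts scaled to a common library size) in HC at Day 0, above the 898 to 1083 CPM of the HC markers (Itgax, Itgal, Cd53, Ptprc). With earlier results of these data known, 8 libraries were set apart: replicates 1 and 2 of EC at Day 0, replicate 3 of EC at Day 28, replicates 2 and 3 of FB at Day 3, replicate 4 of FB at Day 28, and replicates 2 and 4 of HC at Day 28. Their share of reads on antisense-annotated genes was 1.12 to 1.67 times the mean of the libraries of their group not set apart. The other 88 libraries had 0.756 to 1.19 times that mean, which includes the library itself and so draws the ratio toward 1. EC Day 28 replicate 3 (1.12) lay within that range. In FB at Day 3 the shares were 0.610% and 0.708% in replicates 2 and 3, against 0.342% and 0.504% in replicates 1 and 4. FB Day 3 replicates 2 and 3 were also the shallowest, and CM markers summed there to 521 and 365 CPM, against 12.2 and 18.6 CPM in replicates 1 and 4. Some results that rest on these libraries are given with and without them, and the others only with them.

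In unoperated hearts the members were expressed mainly outside CM. On the per-length TPM scale the highest member in CM was Irgm1, at only 0.283 ± 0.11 TPM (SD, n = 4). In EC the leading members were Irf1 at 9.55 ± 3.3 TPM and Ddx58 at 8.81 ± 1.7 TPM (SD, n = 4). FB had far more Irf1, 77.3 ± 9.4 TPM, followed by Cxcl10 at 41.2 ± 9.4 TPM and Irgm1 at 16.7 ± 3.3 TPM (SD, n = 4). HC were led by Ifi204, a DNA sensor, at 23.3 ± 5.9 TPM and by Bst2, which tethers budding virus, at 14.9 ± 5 TPM (SD, n = 4). These levels are the deposited TPM, which were scaled library by library. Genes counted as ribosomal RNA took 55.9% to 64.6% of assigned reads in CM at Day 0. In EC they took 16.6% to 18.4%, in FB 4.77% to 7.75% and in HC 18.7% to 24.9%. The part of this in the levels set side by side between cell types was not tested.

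**Figure D1:**
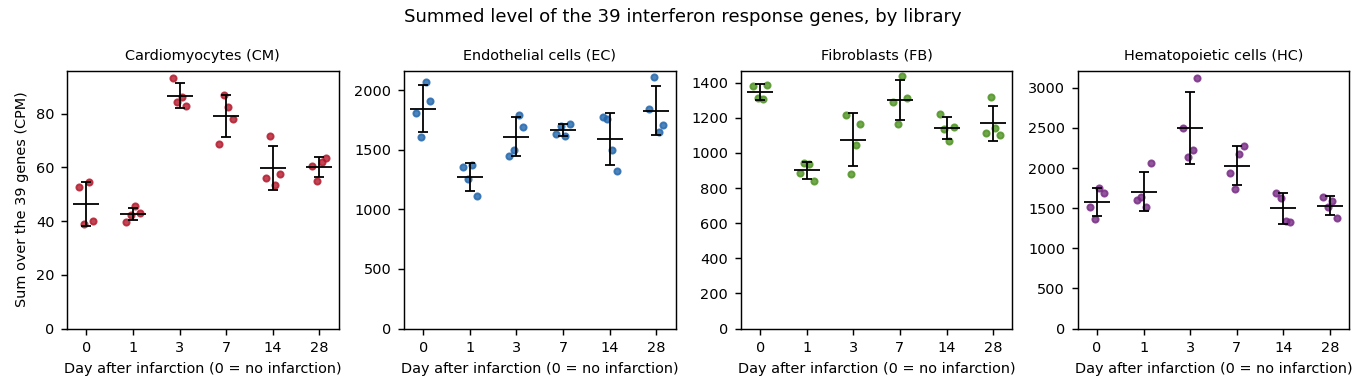
Summed level of the 39 interferon response genes (CPM, y axis, a separate scale for each panel starting at 0) by day after MI (x axis) in CM, EC, FB and HC, with a point for each library, a long bar for the mean of 4 and whiskers for the SD. HC reached 2496 CPM at Day 3, against 1578 CPM at Day 0, while EC and FB were lowest at Day 1.

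The summed level of the 39 members followed a different course in each cell type. In HC it averaged 1704 CPM at Day 1 and 2496 CPM at Day 3, against 1578 CPM at Day 0, and in CM 86.7 CPM at Day 3 against 46.5 CPM. In EC it dropped to 1272 CPM at Day 1, against 1847 CPM at Day 0, and in FB to 902 CPM against 1347 CPM. The 4 EC libraries at Day 1 spanned 1109 to 1370.1 CPM, below the 1604 to 2066 CPM of Day 0, and the 4 FB libraries 838 to 945 CPM, below 1309 to 1387 CPM. The HC libraries at Day 1 (1521 to 2063 CPM) overlapped those of Day 0 (1368 to 1747 CPM), and at Day 3 (2140.3 to 3123 CPM) they did not. In these bulk samples fewer cells of a type and less RNA per cell cannot be told apart.

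Each day was then compared with Day 0 within each cell type, which asks when after MI the interferon program moved and in which cells. The test was edgeR's quasi-likelihood test over all genes of the cell type, called at a Benjamini-Hochberg adjusted p under 0.05. In HC at Day 3, 27 of 39 members were higher and 1 lower, where 23.3% of all genes tested were called higher and 23.1% lower. At Day 1 the HC members were split, with 11 higher (18.1% of all genes) and 8 lower (23.8%). At Day 7, 18 were higher (14.1%) and 0 lower (13.9%). At Day 14 only 1 was higher (6.11%), and at Day 28 only 1 lower (10.4%); edgeR called 0 lower at Day 14 (6.80% of all genes) with 4 lower at an unadjusted p under 0.05, and 0 higher at Day 28 (11.4%) with 5, and DESeq2 called 0 in both. The median log2 fold change of the members in HC was 0.00 at Day 1, 0.69 at Day 3 and 0.42 at Day 7, against -0.10, -0.02 and 0.03 over all genes. On the deposited TPM scale the HC Day 1 split was 1 higher and 3 lower. The HC files of Days 1 and 7 list transcripts, summed here to genes, while those of the other days list genes, and the part of this in the HC values was not tested. The single calls at Day 14 and Day 28 were lost without any 1 of several libraries, HC Day 0 replicate 2 among them (0 called at either day).

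CM, which had the lowest levels, showed calls in 1 direction from Day 3 on. Of 37 members that passed the filter on low counts (Mx1 and Oas3 did not), 25 were higher and 0 lower at Day 3, where 15.9% of all genes were called higher and 14.6% lower. Day 7 had 20 higher (8.91%) and 0 lower (4.33%), Day 14 had 7 higher (8.03%) and 0 lower (5.70%), and Day 28 had 4 higher (2.48%) and 0 lower (1.09%). No member was lower at these 4 days at an unadjusted p under 0.05 either, nor by DESeq2. Day 1 had 4 members higher (6.80%) and 1 lower (4.57%), and 3 called in all without CM Day 0 replicate 3 or without CM Day 1 replicate 4. The median member log2 fold change was -0.13 at Day 1, 1.13 at Day 3 and 0.83 at Day 7, against -0.01, -0.06 and -0.03 over all genes. The Day 28 count was 0 without CM Day 0 replicate 4 or without CM Day 28 replicate 4. With Day 3 set against Day 1, 28 members were higher and 0 lower in CM (9.01% and 5.89% of all genes). On the deposited TPM scale 0, 30, 6, 1 and 0 members were called in CM at Days 1, 3, 7, 14 and 28, each of them higher, and after TMM scaling of the TPM 0, 16, 16, 3 and 0.

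EC and FB had their lowest point at Day 1. In EC, 25 of 39 members were lower and 1 higher at Day 1, where 9.11% of all genes were called lower and 9.85% higher. In FB, 19 were lower (6.36%) and 1 higher (11.5%). The medians were -0.45 in EC and -0.51 in FB, against -0.01 and -0.05 over all genes. From Day 1 to Day 3 the members turned: with Day 3 set against Day 1, 24 were higher and 0 lower in EC (13.2% and 9.27% of all genes) and 19 higher and 0 lower in FB (15.4% and 10%). Without EC Day 0 replicates 1 and 2 and the other libraries set apart, EC Day 1 had 22 lower and 0 higher. The Day 1 counts also depended on the scale: on the deposited TPM scale 1 member was lower in EC and 3 in FB, with 0 higher, and after TMM scaling of the TPM 20 were lower and 0 higher in EC and 11 lower and 1 higher in FB. The direction in FB between Day 3 and Day 1 depended on the scale, since on the deposited TPM scale 1 member was higher and 17 lower, and after TMM scaling of the TPM 15 were higher and 0 lower.

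From Day 3 on, members were called both ways in EC and FB, in EC at shares near those of all genes on Days 3 and 7. EC had 8 higher and 10 lower at Day 3, 20.5% and 25.6% of the members (23.2% and 22.3% of all genes, 45.5% either way). Day 7 had 6 of each, 15.4% of the members (17.9% and 19.7%, 37.6% either way), Day 14 had 2 higher and 7 lower (12.8% and 14.3%, 27.0% either way) and Day 28 had 5 higher and 1 lower (16.3% and 17.4%, 33.7% either way). FB had 14 higher and 12 lower at Day 3 (25.8% and 23.3%, 49.1% either way). Day 7 had 12 higher and 3 lower (9.83% and 4.51%, 14.3% either way), Day 14 had 2 higher and 3 lower (8.25% and 2.61%, 10.9% either way) and Day 28 had 1 higher and 3 lower (2.88% and 0.606%, 3.49% either way). These splits depended on the scale. On the deposited TPM scale the median of all genes itself shifted, by -0.70 in FB at Day 3 and by 0.51 in EC at Day 28 at the extremes. On that scale EC had 5, 34, 30 and 39 members higher on Days 3, 7, 14 and 28 and 0 lower on each, while FB had 0, 2 and 0 higher on Days 3, 7 and 14 and 27, 0 and 5 lower. After TMM scaling of the TPM the split in EC was 7 and 8, 5 and 6, 2 and 6 and 4 and 1 at Days 3, 7, 14 and 28, and in FB 10 and 11, 6 and 2, 0 and 1 and 0 and 0.

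Libraries also moved these counts. Without the 8 libraries set apart, EC Day 28 had 0 members called and FB Day 3 had 16 higher and 8 lower. Without them FB Day 14 had 7 higher and 9 lower. None of the 8 is from FB at Day 0 or Day 14, but all FB libraries share a fit and its estimate of the spread. EC Day 14 had 3 called without its replicate 3 and 4 without its replicate 4.

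**Figure D2:**
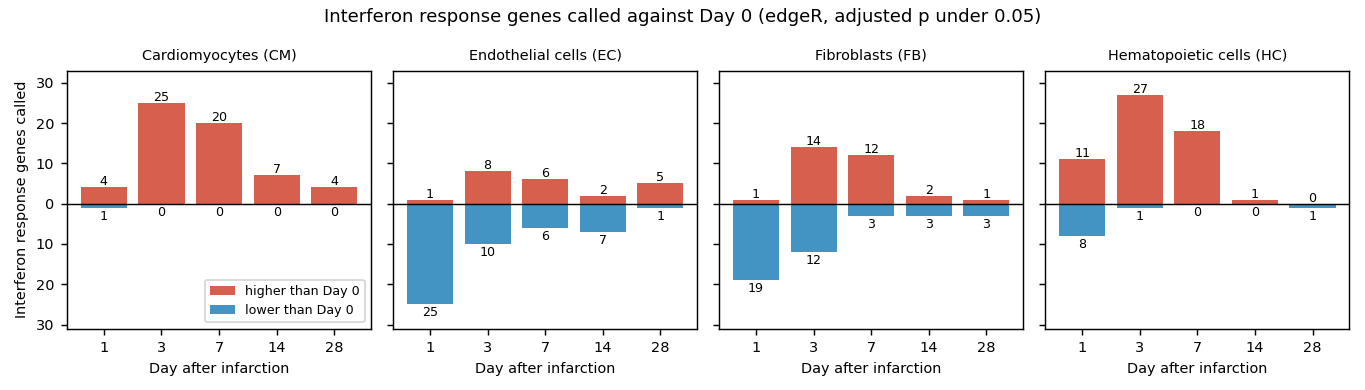
Number of the 39 interferon response genes called higher (up) and lower (down) than Day 0 at each day (x axis) in CM, EC, FB and HC by edgeR at an adjusted p under 0.05. HC and CM peak at Day 3 with 27 and 25 higher, and the largest counts of lower members are 25 in EC and 19 in FB at Day 1.

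The 4 transcription factors of the set split between cell types. Irf7, the factor that amplifies type I interferon production, had 84.1, 47.6, 63.7 and 115 CPM in HC at Day 3, against 17.0, 12.3, 22.4 and 22.2 CPM at Day 0. Every Day 3 library was above every Day 0 library, with a log2 fold change of 2.07 ± 0.32 (SE, edgeR adjusted p = 1.8e-05). At Day 1 the HC libraries already held 24.6, 29.9, 26.1 and 67.1 CPM of Irf7, a log2 fold change of 1.00 ± 0.32 (edgeR adjusted p = 0.014) that became 0.54 and lost the call without replicate 4. In CM Irf7 was called higher at Day 3, with 1.69 ± 0.43 CPM against 0.532 ± 0.21 CPM at Day 0 (SD, n = 4), a log2 fold change of 1.62 ± 0.32 (SE). The CM call was lost after TMM scaling of the TPM (0.087).

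Irf1, a rapid target of interferon gamma and of inflammatory cytokines, went in opposite directions in HC and FB. HC at Day 1 held 150, 97.9, 94.6 and 122 CPM of Irf1, against 66.7, 54.9, 59.8 and 68.5 CPM at Day 0, a log2 fold change of 0.89 ± 0.13 (SE, edgeR adjusted p = 1.1e-05). FB held 208, 169, 180 and 160 CPM at Day 1 and 148, 172, 164 and 148 CPM at Day 3, against 307, 300, 278 and 292 CPM at Day 0. All 20 FB libraries after MI were below all 4 of Day 0, with log2 fold changes of -0.71, -0.90, -0.58, -0.42 and -0.43 at Days 1, 3, 7, 14 and 28, each called by edgeR. The Day 14 call was lost without FB Day 14 replicate 3 (-0.35), and the Day 28 call without any of 6 libraries (-0.41 to -0.44). Stat2 and Irf9, which bind the ISRE together, were called lower in EC and FB at Day 1 (-0.45 and -0.30 in EC, -0.56 and -0.45 in FB). In HC at Day 1 they did not pass the test, at -0.12 and -0.19.

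Among the 5 sensors, 2 were higher in every cell type. Dhx58, a regulator of the RIG-I like RNA sensors, and Zbp1, a sensor of left-handed nucleic acid that can trigger necroptosis, were called higher in all 4 cell types on both Day 3 and Day 7, as was Isg15, which is no sensor, at Day 3. In EC the Dhx58 call at Day 7 (0.75) was lost without the libraries set apart (0.43). After TMM scaling of the TPM the Dhx58 calls in EC at Days 3 and 7 were lost (0.23 and 0.14). Zbp1 in HC had 42.9, 26.1, 31.2 and 39.8 CPM at Day 3, against 11.9, 10.5, 17.4 and 12.7 CPM at Day 0. In EC it had 4.35, 4.47, 5.63 and 5.86 CPM at Day 3, against 1.54, 1.42, 1.54 and 1.35 CPM at Day 0, a log2 fold change of 1.79 ± 0.29 (SE). In FB it had 12.2, 16.9, 23.3 and 17.4 CPM at Day 3, against 6.80, 5.23, 7.13 and 6.48 CPM at Day 0, a log2 fold change of 1.40 ± 0.20 that was -0.01 on the deposited TPM scale. None of these 3 sets of Day 3 libraries overlapped Day 0.

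In CM the same gene stood near the limit of detection. CM gave 23, 31, 28 and 20 reads of Zbp1 at Day 3, against 2, 0, 0 and 1 reads at Day 0, a ratio of 28.9 after scaling for depth, with an exact 95% interval of 9.60 to 142 that covers counting error only. Dhx58 in CM gave a ratio of 5.56 (2.74 to 12.8). The intervals of these counts exclude a ratio of 1, and the size of the change is poorly set by so few Day 0 reads. Reads from Dhx58 and its antisense partner Dhx58os may be mixed, since the counting is not stated to use strand.

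Ifi204, a DNA sensor of a family whose members share sequence, separated cell types. In CM it had 3.10, 4.22, 3.05 and 3.03 CPM at Day 3, against 0.424, 0.261, 0.514 and 0.407 CPM at Day 0, a log2 fold change of 3.08 ± 0.30 (SE, edgeR adjusted p = 4.5e-08). It remained above Day 0 in CM at every later day, with log2 fold changes of 2.54, 2.12 and 1.25 at Days 7, 14 and 28. The Day 28 value was not called without CM Day 0 replicate 4 or without CM Day 28 replicate 4. On the deposited TPM scale Ifi204 in CM was not called at Day 14 (0.26) or Day 28. In EC it had 35.5, 37.5, 37.1 and 44.8 CPM at Day 3, against 19.8, 19.3, 21.2 and 18.2 CPM at Day 0, a log2 fold change of 0.98 ± 0.11 (SE). In FB at Day 3 it did not pass the test, at -0.17. The RNA sensors Ifih1 and Ddx58 rose in HC at Day 3, at 0.48 and 0.53. In FB at Day 3 Ifih1 fell, to 54.3, 20.3, 24.8 and 36.9 CPM against 70.4, 67.5, 76.2 and 80.1 CPM at Day 0, with the 2 libraries set apart lowest.

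Active enzymes of the OAS family make the messenger that activates RNase L. At Day 3, 4 of the 5 members of the family were higher in HC (23.3% of all genes), 4 of 5 in FB (25.8%), 2 of 4 tested in CM (15.9%) and 2 of 5 in EC (23.2%), and 5 of 5 were higher in FB at Day 7 (9.83%). Without the libraries set apart the Day 3 calls of Oas3 in FB (0.91) and Oasl1 in EC (0.54) were lost. Single libraries also cost these calls, any 1 of 2 for Oas3 (1.08 to 1.13) and EC Day 0 replicate 2 for Oasl1 (0.50). In FB at Day 7 Oas1a lost its call without any 1 of 6 libraries and Oas3 without any 1 of 3. The only member of the family called lower at Day 3 was Oas2 in EC (-0.42, edgeR adjusted p = 0.049). That call was lost with RLE scaling (-0.42), with no filter on low counts (-0.40) and without any 1 of 5 libraries (-0.47 to -0.33). On the deposited TPM scale its sign turned (0.073). Oasl1 in HC had 20.0, 15.6, 16.5 and 39.2 CPM at Day 3, against 3.64, 3.84, 7.12 and 5.73 CPM at Day 0, a log2 fold change of 2.17 ± 0.30 (SE, edgeR adjusted p = 3.9e-06). Oas3 in HC had 55.6, 38.9, 37.9 and 21.2 CPM at Day 3, against 8.21, 6.54, 10.2 and 9.30 CPM, and was already at 29.0, 29.9, 32.8 and 40.1 CPM at Day 1. Both genes were above every Day 0 library at each of these days. Oasl1 in FB had 5.49, 6.09, 5.56 and 8.28 CPM at Day 3, against 2.24, 1.51, 1.66 and 2.03 CPM at Day 0, a log2 fold change of 1.80 ± 0.26 that was -0.15 on the deposited TPM scale.

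Oasl2 was called higher in CM at all 5 days. It had 4.10, 3.82, 3.70 and 3.89 CPM at Day 3, against 0.979, 0.616, 0.734 and 0.479 CPM at Day 0, a log2 fold change of 2.48 ± 0.23 (SE, edgeR adjusted p = 1.4e-08). None of the 4 Day 3 libraries overlapped Day 0. At Day 28 Oasl2 in CM had 1.46, 1.16, 0.755 and 1.55 CPM, which overlapped Day 0 (0.90, edgeR adjusted p = 0.038). That call was lost without CM Day 0 replicate 4 or without CM Day 28 replicate 4. On the deposited TPM scale, also after TMM scaling, Oasl2 was not called in CM at Day 1 or Day 28. Oas2 was lower in HC at Day 1, with 45.3, 50.7, 48.9 and 65.0 CPM against 94.3, 71.2, 92.4 and 84.9 CPM at Day 0, a log2 fold change of -0.71 ± 0.19. In FB at Day 7 Oas2 was higher instead, with 10.1, 5.34, 12.5 and 12.9 CPM against 3.54, 3.38, 2.80 and 3.09 CPM at Day 0, a log2 fold change of 1.67 ± 0.29. In EC, Oas3 and the antiviral gene Mx1 were low but called higher at Day 3, Oas3 with 0.852, 0.338, 1.31 and 1.15 CPM against 0.199, 0.343, 0.447 and 0.616 CPM at Day 0, and Mx1 with 1.03, 1.39, 1.62 and 1.43 CPM against 0.298, 0.300, 0.650 and 0.192 CPM. The Oas3 groups overlapped and the Mx1 groups did not. Oas1a shares sequence with its near copies, and in FB at Day 3 its call (1.51) was lost without replicate 4 (0.97) and its sign turned on the TPM scale (-0.02).

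The IFIT proteins bind foreign RNA ends, and Isg15, Usp18 and Herc6 attach or remove the Isg15 tag. Of these 7 members, 6 were higher and 0 lower in HC at both Day 3 and Day 7 (23.3% and 14.1% of all genes higher), and 5 and 6 were higher in CM, with 0 lower (15.9% and 8.91% higher). In EC 5 of 7 were lower at Day 1 (9.11% of all genes), and at Day 3 Isg15 was higher and Herc6 lower (-0.40). FB at Day 3 had 4 higher and 2 lower (25.8% and 23.3%), the lower ones being Ifit2 (-0.91) and Herc6 (-0.51). Ifit2 in HC had 84.2, 83.8, 69.9 and 62.3 CPM at Day 3 and 70.2, 68.7, 63.9 and 80.6 CPM at Day 7, against 24, 23.6, 31.9 and 28.9 CPM at Day 0. At Day 1 it had 19.6, 22.8, 19.1 and 38.0 CPM and overlapped Day 0. The log2 fold change was 1.47 ± 0.22 at Day 3 and 1.39 ± 0.22 at Day 7 (SE). In FB Ifit2 fell at Day 3, with 28.8, 8.12, 11.6 and 17.5 CPM against 29.8, 36.8, 34.0 and 36.5 CPM at Day 0. The lowest values, 8.12 and 11.6 CPM, belong to the libraries set apart.

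Isg15 in HC had 13.3, 12.5, 13.0 and 10.3 CPM at Day 3, against 2.83, 3.16, 6.50 and 4.01 CPM at Day 0, a log2 fold change of 1.58 ± 0.27 (SE). In EC it had 6.46, 6.80, 8.88 and 8.30 CPM, against 4.62, 2.62, 4.43 and 5.12 CPM, a log2 fold change of 0.86 ± 0.20. In FB it had 9.57, 12.2, 17.2 and 17.3 CPM, against 5.47, 4.24, 4.94 and 5.17 CPM, a log2 fold change of 1.49 ± 0.26 that was -0.40 on the deposited TPM scale. In CM it had 0.485, 0.671, 0.528 and 1.01 CPM, against 0.163, 0.142, 0.110 and 0.239 CPM, a log2 fold change of 1.98. The Day 3 and Day 0 libraries did not overlap in any of the 4 cell types. Ifit3 and Ifit3b are near-identical copies that share reads, so their separate values (1.28 and 1.22 in HC at Day 3) are uncertain.

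**Figure D3:**
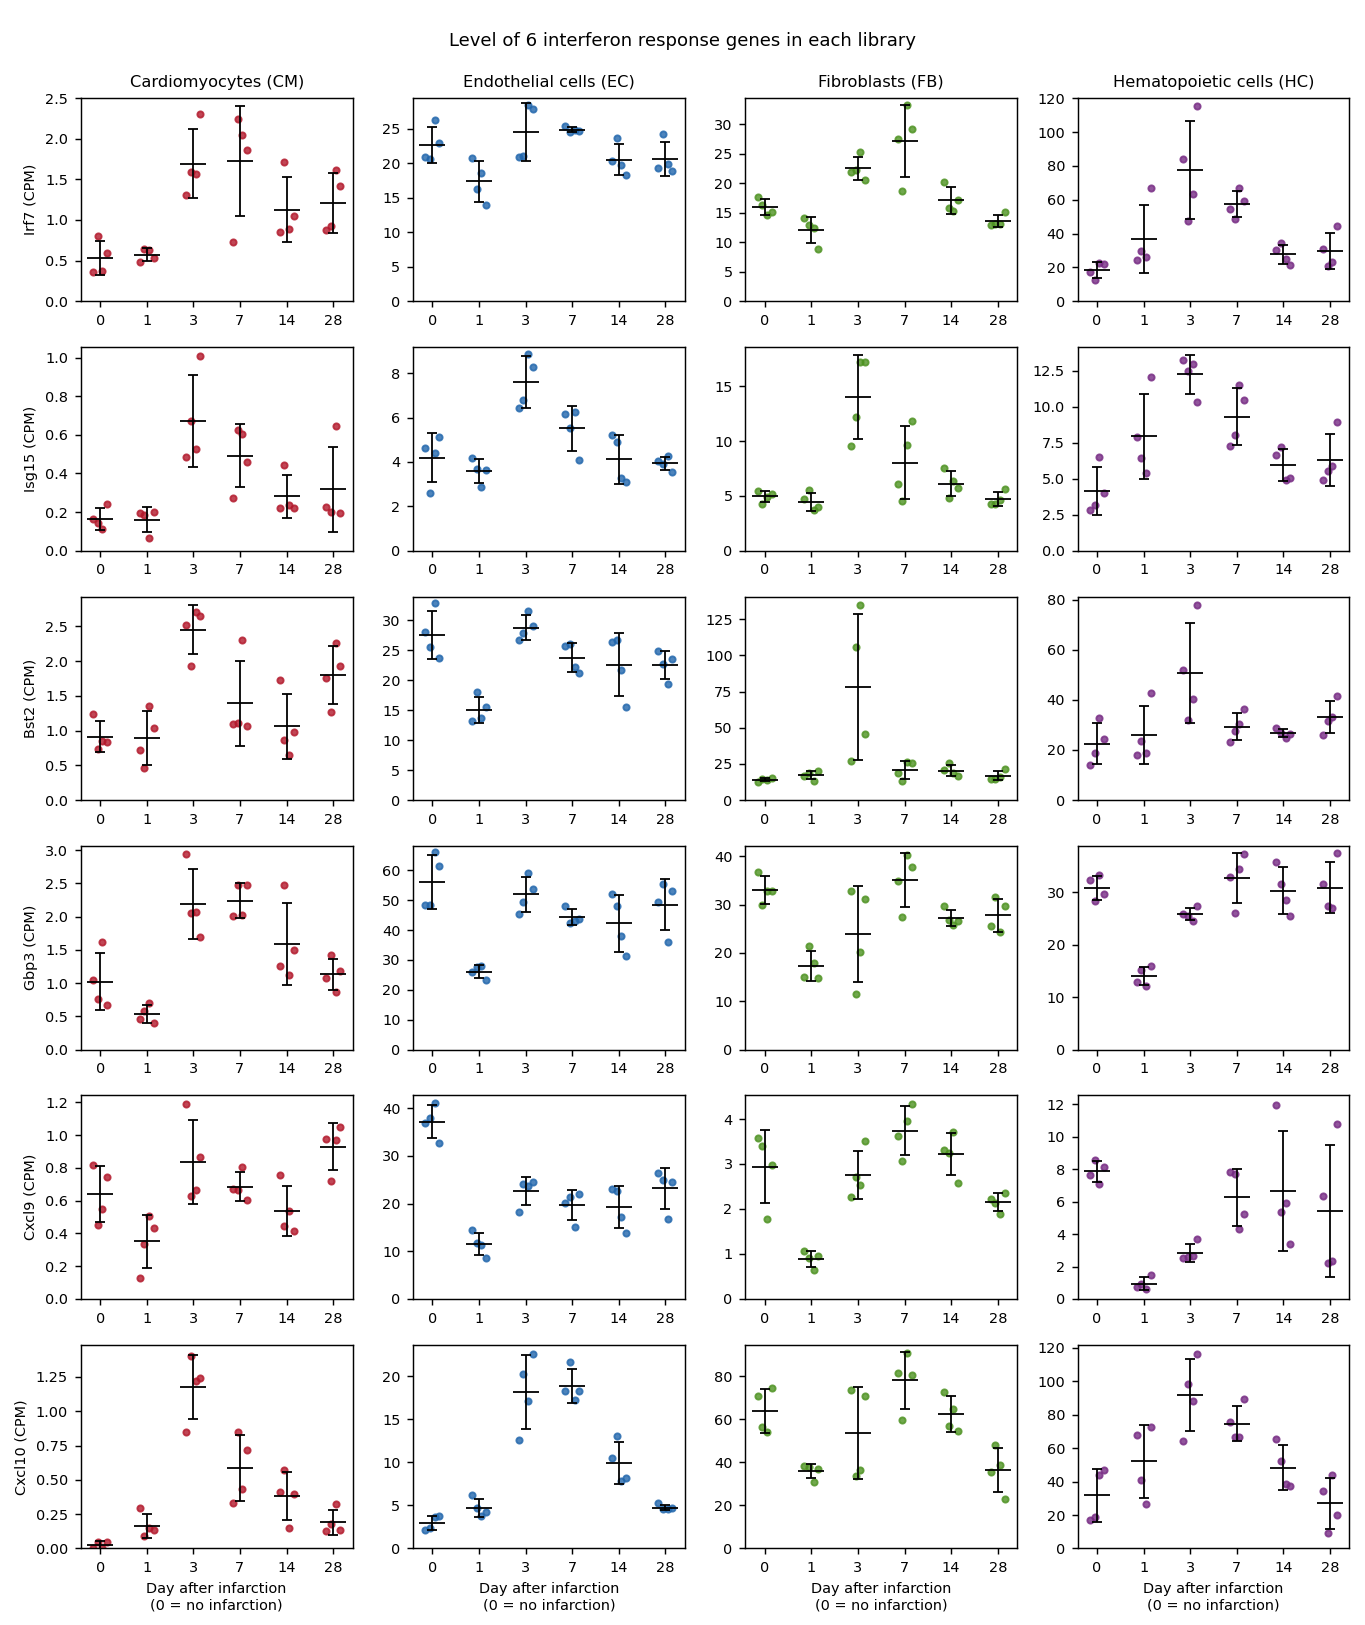
Levels of 6 interferon response genes (Irf7, Isg15, Bst2, Gbp3, Cxcl9 and Cxcl10, CPM, y axes starting at 0, a separate scale for each panel) in each library by day after MI (x axis) and cell type, with a point for each library, a long bar for the mean of 4 and whiskers for the SD. Cxcl9 in EC stays below its Day 0 level at every day while Cxcl10 in EC stays above it.

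Among the other antiviral genes, Rsad2 (viperin) in HC had 102, 85.5, 93.0 and 147 CPM at Day 3, against 28.3, 32.7, 39.6 and 36.5 CPM at Day 0, a log2 fold change of 1.64 ± 0.20 (SE, edgeR adjusted p = 6e-07). In EC it was lower at Day 3, at -0.58 ± 0.15. Cmpk2, a mitochondrial nucleotide kinase that sits beside Rsad2 in the genome, was lower in CM, EC and FB at Day 1 (-0.86, -0.83 and -0.93) and higher in HC at Day 3 (0.91). The CM call was lost without any 1 of 4 libraries, replicates 1 and 3 of Day 0 and replicates 2 and 4 of Day 1 (-0.72 to -0.75). Bst2 in CM had 2.52, 1.93, 2.71 and 2.65 CPM at Day 3, against 1.24, 0.734, 0.844 and 0.838 CPM at Day 0. In FB it had 26.8, 106, 135 and 45.9 CPM at Day 3, against 12.4, 14.6, 14.2 and 15 CPM, and the 106 and 135 CPM belong to the 2 libraries set apart. Mx2 in FB fell to 4.59, 5.20, 5.98 and 5.59 CPM at Day 1 and 6.93, 2.71, 4.05 and 4.90 CPM at Day 3, against 12.5, 12.8, 12 and 12.8 CPM at Day 0. The lowest Day 3 values, 2.71 and 4.05 CPM, belong to the libraries set apart.

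Ifi44, a cytoplasmic interferon-induced protein, dipped at Day 1 in EC and HC. In EC it had 35.7, 32.2, 35.2 and 25.3 CPM at Day 1, against 55.9, 54.9, 68.6 and 66.4 CPM at Day 0, a log2 fold change of -0.94 ± 0.16. In HC it had 2.73, 2.15, 2.23 and 2.93 CPM, against 4.95, 6.68, 9.03 and 8.66 CPM, a log2 fold change of -1.54 ± 0.31. In FB it was higher at Day 7, with 17.1, 9.06, 14.1 and 21.1 CPM against 3.93, 4.29, 3.31 and 4.32 CPM at Day 0, a log2 fold change of 1.95 ± 0.30. None of these 3 pairs of groups overlapped. Mx1 in HC, with 44.7, 33.2, 37.8 and 41.8 CPM at Day 3, was also clear of the 18, 15.3, 17.8 and 16.8 CPM at Day 0.

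Interferon-induced GTPases were lower at Day 1 outside CM. All 5 (Gbp2, Gbp3, Gbp7, Igtp, Irgm1) were lower in EC at Day 1 (9.11% of all genes), 4 of 5 in FB (6.36%), 4 of 5 in HC (23.8%) and 0 of 5 in CM (4.57%), and 0 were higher in any. Gbp3 in EC had 25.8, 27.5, 27.8 and 23.3 CPM at Day 1, against 48.6, 48.3, 66.0 and 61.3 CPM at Day 0, a log2 fold change of -1.10 ± 0.15 (SE, edgeR adjusted p = 2.5e-05). In HC it had 12.9, 15.2, 12.1 and 15.9 CPM, against 32.4, 28.3, 33.3 and 29.7 CPM, a log2 fold change of -1.14 ± 0.13. At Day 3 Gbp3 did not pass the test in either cell type: it had 45.5, 49.5, 59.2 and 53.6 CPM in EC, which overlapped Day 0, and 26.0, 25.6, 24.5 and 27.4 CPM in HC, which lay just below Day 0. In HC the calls of Igtp and Gbp2 at Day 1 (-0.42 and -0.52) were each lost without any of several single libraries, HC Day 1 replicates 1 and 3 for both (-0.36 to -0.51). Reads can be split between Gbp copies, and Igtp overlaps Irgm2 on the same strand over 7974 bases.

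Irgm1, a GTPase that controls autophagy and mitochondria, stayed lower in FB. It had 33.7, 41.3, 45.4 and 34.0 CPM at Day 1, 45.5, 30.4, 50.1 and 41.4 CPM at Day 3 and 52.2, 60.2, 64.6 and 47.1 CPM at Day 7, against 108, 91.1, 81.9 and 92.9 CPM at Day 0. At Day 14 it had 49.5, 55.3, 45.2 and 56.8 CPM and at Day 28 52.1, 85.7, 48.2 and 50.8 CPM, where replicate 2 overlapped Day 0. The log2 fold changes were -1.28, -1.15, -0.74, -0.86 and -0.66 at Days 1, 3, 7, 14 and 28, all called by edgeR, and the Day 28 call was lost without any of 6 libraries (-0.58 to -0.68).

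The chemokines Cxcl9 and Cxcl10, ligands of Cxcr3, a chemokine receptor on T cells, parted ways. In EC Cxcl9, which depends mainly on interferon gamma, had 14.4, 11.7, 11.3 and 8.61 CPM at Day 1, 18.3, 24.1, 23.8 and 24.6 CPM at Day 3 and 20.2, 21.5, 15 and 22.1 CPM at Day 7, against 36.9, 37.9, 41.1 and 32.7 CPM at Day 0. It was lower at all 5 days, at -1.70, -0.71, -0.91, -0.95 and -0.68. Cxcl10 in EC had 12.6, 20.2, 17.2 and 22.6 CPM at Day 3 and 18.2, 21.7, 17.2 and 18.3 CPM at Day 7, against 2.14, 2.32, 3.66 and 3.73 CPM at Day 0, and was higher at all 5 days, at 0.66, 2.61, 2.66, 1.73 and 0.67. Without EC Day 0 replicates 1 and 2 and EC Day 28 replicate 3 the calls at Day 28 were lost for both (-0.55 and 0.38), as was that of Cxcl10 at Day 1 (0.35). The Cxcl10 call at Day 1 was also lost without any 1 of EC Day 0 replicates 1 and 2 and EC Day 1 replicates 1, 2 and 4 (0.51 to 0.70), and that at Day 28 without EC Day 0 replicate 1 or 2 or EC Day 28 replicate 1 (0.55 to 0.62). On the deposited TPM scale Cxcl9 in EC was at 0.21, 0.17 and 0.44 at Days 7, 14 and 28.

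In HC Cxcl9 had 0.738, 0.942, 0.604 and 1.49 CPM at Day 1 and 2.54, 2.57, 2.62 and 3.68 CPM at Day 3, against 7.67, 8.55, 7.05 and 8.14 CPM at Day 0, with log2 fold changes of -3.04 ± 0.46 and -1.46 ± 0.42 (SE, edgeR adjusted p = 1.7e-05 and 0.0066). No library of either day overlapped Day 0. Cxcl10 in HC was higher at Day 3 instead, with 64.2, 98.4, 88.4 and 116 CPM against 17.1, 19.0, 44.2 and 46.6 CPM, a log2 fold change of 1.53 ± 0.40. In FB Cxcl10 was abundant before injury and fell to 38.5, 37.7, 31.1 and 37.0 CPM at Day 1, against 70.8, 56.3, 54.1 and 74.4 CPM at Day 0. In CM it gave 35, 67, 53 and 43 reads at Day 3, against 0, 2, 0 and 2 reads at Day 0, a ratio of 42.0 with an exact 95% interval of 16.2 to 156. Cxcl10 lies within Art3 on the opposite strand over 2252 bases, and their reads may be mixed.

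**Figure D4:**
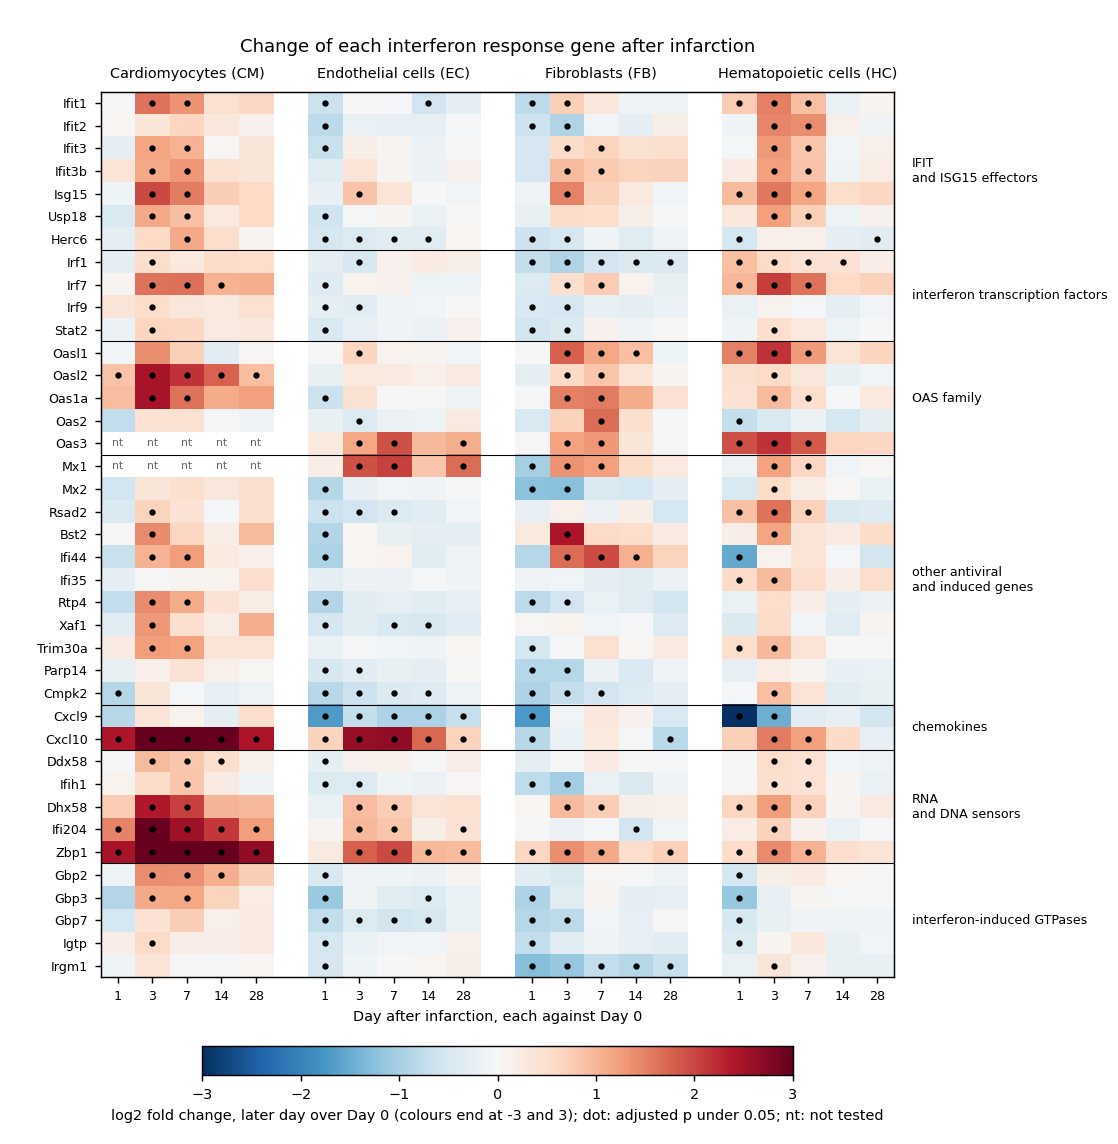
Log2 fold change from Day 0 of each of the 39 interferon response genes (1 line for each gene, grouped by role) at each day in CM, EC, FB and HC, with color for the size (ending at -3 and 3), a dot where edgeR called it at an adjusted p under 0.05 and nt where it was not tested. All 5 GTPase genes are called lower at Day 1 in EC and 4 of 5 in FB and in HC, and Zbp1 and Dhx58 are higher at Days 3 and 7 in all 4 cell types. Without the libraries set apart, Dhx58 in EC at Day 7 was not called (0.43).

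Markers of other cells moved with several of these results. In CM the HC markers summed to 5.14 to 7.21 CPM at Day 3, against 0.196 to 0.587 CPM at Day 0, when Itgax was at 0 in all 4 libraries, and 2 of 4 markers passed the filter, both higher. The 7 resident macrophage markers summed to 12.8 to 25.3 CPM in CM at Day 3, against 1.13 to 2.13 CPM, and 6 of the 6 tested were higher, while the EC markers held 66.4 to 87.2 CPM against 63.2 to 98.0 CPM. In HC the 6 neutrophil markers summed to 1888 to 3309 CPM at Day 1, against 144 to 284 CPM at Day 0, the 5 monocyte markers to 2193 to 2242 CPM against 178 to 224 CPM, and all 11 were called higher. The 7 T and NK cell markers in HC summed to 13.3 to 21.5 CPM at Day 1, against 28.5 to 41.4 CPM, with 2 called lower, and CM markers to 414 to 549 CPM against 1614 to 2640 CPM. In EC monocyte markers summed to 128 to 200 CPM at Day 3, against 28.8 to 38.9 CPM with 2 of 4 tested called higher, while HC markers held 3.14 to 4.38 CPM against 2.79 to 3.58 CPM. The part of these cells in the members' changes was not tested.

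Because the cell types moved at different times, the change from Day 0 in each was set against the mean change in the other 3 in one fit of 32 libraries. In HC at Day 1 the change was higher than elsewhere for 16 members and lower for 2 (12.3% and 16.7% of all genes). Of the 16, 9 were themselves called higher in HC than at Day 0, and 7 were not called. Those of higher change included Oas3 by 2.36 ± 0.43, Oasl1 by 1.59 ± 0.32, Rsad2 by 1.40 ± 0.25, Irf1 by 1.40 ± 0.15 and Irf7 by 1.30 ± 0.28 (log2, SE), and the others were Cxcl9 at -1.55 ± 0.30 and Ifi44 at -0.64 ± 0.23, whose call was lost without any of 7 single libraries (-0.53 to -0.61), HC Day 0 replicate 3 among them. FB had 11 members with a lower change and 0 with a higher one at Day 1 (7.34% and 8.82% of all genes), among them Cxcl10 at -2.15 ± 0.45, which also includes the CM change over 4 reads, and Irgm1 at -1.03 ± 0.18. EC had 4 lower and 0 higher (4.09% and 4.78%), and 1 or 2 called without any 1 of EC Day 0 replicates 1 and 3 and EC Day 1 replicates 2, 3 and 4. CM had 6 higher and 0 lower (7.08% and 8.05%), among them Ifi204 at 1.35 ± 0.22 and Irf9 at 0.66 ± 0.13. On the deposited TPM scale the HC split was 5 higher and 3 lower.

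At Day 3 CM had 20 members of higher change and 0 of lower (11.4% and 7.45% of all genes), and 12 called without CM Day 0 replicate 4. They included Ifi204 at 2.58 ± 0.23, Oasl2 at 1.99 ± 0.24, Rtp4 at 1.53 ± 0.35 and Gbp2 at 1.49 ± 0.29. HC had 15 higher and 4 lower (8.72% and 16.9%), led by Ifit2 at 1.81 ± 0.31, Rsad2 at 1.65 ± 0.23 and Irf7 at 1.42 ± 0.26, with Cxcl9 at -1.25 ± 0.25 and Zbp1 at -1.15 ± 0.29 among the lower. That Zbp1 value includes the CM change, a fold over 3 reads at Day 0. Against Day 0 Zbp1 was higher in HC by 1.42, beside 1.79 in EC and 1.40 in FB, and the difference turned to 1.27 on the deposited TPM scale and 0.54 after TMM scaling of the TPM. FB had 3 higher and 21 lower (13.2% and 15.2%), the lower ones including Cxcl10 at -3.49 ± 0.42, Ifi204 at -1.89 ± 0.20 and Mx2 at -1.63 ± 0.26. The size for Cxcl10 is poorly set, since it includes a CM change over 4 reads at Day 0. The higher change of Bst2 in FB, 1.37 ± 0.36, was 0.34 and not called without the libraries set apart. EC had 0 higher and 11 lower (6.81% and 5.16%), led by Rsad2 at -1.33 ± 0.23 and Ifit1 at -1.23 ± 0.23, with 7 called without EC Day 0 replicate 1 or 3 or EC Day 3 replicate 1, and 17 without the libraries set apart. On the deposited TPM scale the counts were 0 higher and 1 lower in CM, 1 and 1 in EC, 0 and 34 in FB and 22 and 0 in HC, and after TMM scaling of the TPM 13 and 1, 1 and 6, 0 and 15 and 22 and 1.

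Other genes of the pathway, taken from lists and not for how they moved, were read beside the members. Interferon genes themselves were near the limit of detection, and of 9 listed only Ifng and Ifnb1 passed the filter, in HC alone. Ifng in HC had 0.304, 0.583, 0.242 and 0.509 CPM at Day 1, against 1.96, 1.51, 1.67 and 2.00 CPM at Day 0, a log2 fold change of -2.09 ± 0.41 (SE, edgeR) without overlap. Ifnb1 did not pass the test at Day 1 (-1.30) or Day 3 (-0.16). Of 9 receptors and kinases, 4 were higher and 0 lower in HC at Day 1 (18.1% and 23.8% of all genes) and 6 and 0 at Day 3 (23.3% and 23.1%), with Ifnar2 at 0.95 at Day 3.

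Of 30 further interferon-induced genes, 15 of 28 tested were higher and 0 lower in CM at Day 3 (15.9% and 14.6% of all genes), and 2 higher and 13 lower of 29 tested in EC at Day 1 (9.85% and 9.11%). FB at Day 1 had 2 higher and 9 lower of 29 (11.5% and 6.36%). HC at Day 1 had 7 higher and 9 lower of 30, near the shares of all genes (18.1% and 23.8%), and HC at Day 3 had 14 higher and 6 lower of 30 (23.3% and 23.1%). The called genes of this list with the largest falls at Day 1 were all GTPases in FB (Gbp6, Gbp4 and Gbp5 at -1.32, -1.06 and -1.02) and in HC (Tgtp1, Gbp4 and Gbp6 at -1.87, -1.81 and -1.80). In EC they were the GTPases Gbp6 and Gbp5 (-1.17 and -0.74) and the checkpoint ligand Cd274 (-0.76). Ifitm1, which blocks virus entry, was higher in HC at Day 1 by 4.57 on the log2 scale. Among sensing genes and adaptors, Ikbke, a kinase that activates Irf3 and Irf7, was higher in HC at Day 1 by 3.09, and Tmem173 (STING), the adaptor of cytosolic DNA sensing, led at Day 3 in CM (2.29), EC (1.43) and FB (1.36). Of 8 class I antigen presentation genes, 4 were higher and 0 lower in both CM and HC at Day 3 (15.9% of all genes higher in CM and 23.3% in HC).

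Some members were not called in several cell types. Ifi35 was never called against Day 0 in CM, EC or FB. Parp14, which adds ADP-ribose, was never called in CM or HC, and Xaf1 never in FB or HC. In all, 28 of 37 members tested in CM, 35 of 39 in EC, 33 of 39 in FB and 35 of 39 in HC were called at 1 day or more against Day 0, as were 40.2%, 67.4%, 56.2% and 61.9% of all genes tested in those cell types.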

How the data were processed

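RNA of 96 libraries was sequenced with a total RNA kit after depletion of ribosomal RNA. Adapters were removed by the authors with Trim Galore, and alignment used STAR (version 2.28 in the submitters' notes) on mm10, followed by quantification with Salmon. The deposited expected counts (estimated counts) were given per transcript in 56 files (CM, EC, HC at Days 1 and 7) and per gene in 40 (FB, HC at other days). Transcripts were summed to genes and counts rounded to whole numbers here, 0.0196% to 0.363% of reads having no annotated gene, and the deposited TPM, scaled per library by the authors, were used for levels per length. The study left out 2 FB Day 3 libraries and 1 HC Day 28 library that are not named in the sources used here, so all were kept.

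Groups came from the labels. Within each cell type (24 libraries), genes passing filterByExpr were scaled by TMM and tested with edgeR 4.0.16 (robust quasi-likelihood test, R 4.3.3) at a Benjamini-Hochberg adjusted p under 0.05. Changes were compared between cell types in fits of 32 libraries. CPM used the TMM-scaled totals. The tests were checked on simulated data with known changes at Day 3 in genes above 1 CPM, EC left out. Of changes of 1 log2 unit edgeR recovered 87% in CM, 68% in FB and 62% in HC. For the HC change against the other cell types it recovered 44%. Of changes of 2 log2 units it recovered 99%, 90%, 89% and 89%. Power for genes above 1 CPM thus differed between cell types. The simulation does not cover members below that level, such as Isg15, Zbp1 and Dhx58 in CM, with medians of 9, 8 and 5 reads per library. Library construction was split by cell type, so cell type and batch cannot be told apart.

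Members, lists and tests were chosen with earlier results of these data known. Named members are those called with the largest change and a mean of at least 1 CPM, up to 8 per direction and comparison (3 for changes between cell types and for pathway lists). Further members were singled out after their values were seen. Alternatives were RLE scaling, DESeq2 1.42.0, no filter, limma 3.58.1 on log2(TPM + 1), a replicate block, leaving out each library and leaving out 8 libraries; TMM scaling of the TPM was added after seeing the data.

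At each time the 4 cell types came from the same animals, but the sources do not say that a number marks the same animals across groups. Same-numbered libraries deviated together (every pair correlated above 0.1) only in CM, for Day 1 against Day 0 (0.209 to 0.283), Day 3 against Day 0 (0.208 to 0.302), Day 3 against Day 1 (0.302 to 0.410) and Day 7 against Day 1 (0.115 to 0.325), the last of which is not reported here. Promoters were matched by symbol in RefSeq (GRCm38.p6).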

Additional observations from a re-analysis of the deposited data

Results flagged for a closer look

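Among the 122 groups of 4 libraries tested, 2 held a library far from the other 3, and chance gives about 1 in 20. Ifi204 in CM at Day 3 was 4.22 CPM in replicate 2, against 3.03 to 3.10 CPM in the others, and Oasl2 in CM at Day 7 was 3.56 CPM in replicate 4, against 2.92 to 3.03 CPM.

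The change from Day 0 in each cell type differed from the mean change in the other 3 for many members, by edgeR's test of that difference. On Day 1 it held for 6 members (CM), 4 (EC), 11 (FB) and 18 (HC), where 15.1%, 8.87%, 16.2% and 29.0% of all genes tested were called in either direction. On Day 3 it held for 20 (CM), 11 (EC), 24 (FB) and 19 (HC), with 18.8%, 12%, 28.4% and 25.6% of all genes. The log2 differences at Day 1 were 2.08 for Zbp1, 1.35 for Ifi204 and 1.28 for Cxcl9 in CM, and -1.08 for Oas1a, -1.03 for Bst2 and -0.98 for Zbp1 in EC. Both Zbp1 values rest on 3 CM reads at Day 0, DESeq2 called neither, and the calls were lost without any 1 of 5 libraries in CM (1.60 to 2.15) and of 22 in EC (-1.01 to -0.82). In FB they were -2.15 for Cxcl10, -1.03 for Irgm1 and -0.86 for Ifit1. In HC they were 2.36 for Oas3, 1.59 for Oasl1, 1.40 for Rsad2, -1.55 for Cxcl9 and -0.64 for Ifi44.

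At Day 3 the differences in CM were 4.01 for Cxcl10, 3.22 for Zbp1 and 2.58 for Ifi204, where Cxcl10 and Zbp1 rest on 4 and 3 reads at Day 0, as do in part the values of these genes in the other cell types. In EC they were -1.54 for Bst2, -1.33 for Rsad2 and -1.23 for Ifit1. In FB they were 1.37 for Bst2, 1.15 for Ifi44, 0.75 for Oas2, -3.49 for Cxcl10, -1.89 for Ifi204 and -1.63 for Mx2. In HC they were 1.81 for Ifit2, 1.65 for Rsad2, 1.42 for Irf7, -1.25 for Cxcl9, -1.15 for Zbp1 and -0.63 for Oas2.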

How the results depend on the processing

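The deposited TPM scale changed the most, since it moved the median of all genes by -0.70 to 0.51 (log2). By limma on log2(TPM + 1), members called against Day 0 numbered 0, 6, 1 and 0 in CM at Days 1, 7, 14 and 28, 1, 5, 34, 30 and 39 in EC at Days 1, 3, 7, 14 and 28, 3, 2 and 0 in FB at Days 1, 7 and 28, and 4, 16, 0 and 0 in HC at Days 1, 3, 14 and 28. Day 3 against Day 1 gave 4 in EC, and Day 7 against Day 1 gave 29 in HC. Changes between cell types at Day 1 gave 1 for CM, 0 for EC, 5 for FB and 8 for HC, and at Day 3 1 for CM and 2 for EC. Members reversed there in EC were Bst2 (0.13) at Day 1, Oas2 (0.073) at Day 3, Cmpk2 (0.83), Cxcl9 (0.21), Gbp7 (0.38), Herc6 (0.53), Rsad2 (0.68) and Xaf1 (0.54) at Day 7, Cmpk2 (0.62), Cxcl9 (0.17), Gbp3 (0.59), Gbp7 (0.40), Herc6 (0.61), Ifit1 (0.27) and Xaf1 (0.37) at Day 14, and Cxcl9 (0.44) at Day 28. In FB they were Isg15 (-0.40), Mx1 (-0.048), Oas1a (-0.019), Oasl1 (-0.15) and Zbp1 (-0.013) at Day 3, Zbp1 (-0.19) at Day 28 and Isg15 (-0.088) for Day 3 against Day 1, and in HC Herc6 (0.10) at Day 28 and Irf1 (0.34) for Day 7 against Day 1. Among changes between cell types they were Zbp1 in CM (-0.34) and Bst2 in EC (0.046) at Day 1, and Cxcl10 (-0.16) and Zbp1 (-0.49) in CM, Bst2 (-0.97) and Oas2 (-0.063) in FB and Zbp1 in HC (1.27) at Day 3. After TMM scaling of the TPM, an alternative chosen after seeing the data, 5 were reversed, of which all but Ifi44 were also reversed on the deposited TPM scale: Cmpk2 in EC at Day 7 (0.13), and among changes Zbp1 in CM (-0.17) and Ifi44 in HC (0.0065) at Day 1 and Zbp1 in CM (-0.18) and HC (0.54) at Day 3. There the counts were 0, 16, 3 and 0 in CM at Days 1, 3, 14 and 28, 12, 8, 1 and 0 in FB at Days 1, 7, 14 and 28, 0 in HC at Day 28, 15 in EC for Day 3 against Day 1, 9 in HC for Day 7 against Day 1, and, for changes, 10 in EC at Day 1 and 7 in EC and 15 in FB at Day 3.

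DESeq2 called 7 in CM at Day 28, 8 in FB at Day 14 and 19 for the EC change at Day 3. With no filter on low counts the counts were 1 in CM and 1 in FB at Day 28, 0 in HC at Days 14 and 28, and 2 and 7 for the EC changes at Days 1 and 3. Without the 8 libraries they were 0 in EC and 0 in HC at Day 28, 16 in FB and 2 in HC at Day 14, and 2 and 17 for the EC changes at Days 1 and 3. The replicate block gave 6, 26 and 28 in the 3 paired CM comparisons reported and 9 in CM at Day 28, and moved no other count by over 1.5 times. With it the calls of Gbp3 in EC at Day 14, Mx1 in FB at Day 1, Cxcl10 in FB at Day 28, Oas1a in FB for Day 3 against Day 1, and 4 changes (Zbp1 in EC and Ifi44 in HC at Day 1, Oas2 in FB and HC at Day 3) were lost. The cause of these shifts was not tested.

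Leaving out 1 library at a time gave, at Days 1, 3, 7, 14 and 28, 3 to 5, 23 to 26, 17 to 21, 5 to 9 and 0 to 5 members in CM, 18 to 26, 15 to 19, 8 to 12, 3 to 11 and 4 to 7 in EC, 14 to 19, 22 to 27, 10 to 19, 2 to 4 and 0 to 3 in FB, and 16 to 20, 26 to 30, 12 to 19, 0 to 3 and 0 to 1 in HC. Day 3 against Day 1 gave 24 to 27 in CM, 21 to 25 in EC and 13 to 20 in FB, and Day 7 against Day 1 gave 10 to 20 in HC. Changes at Day 1 gave 4 to 9 (CM), 1 to 5 (EC), 10 to 12 (FB) and 13 to 18 (HC), and those at Day 3 12 to 22, 7 to 13, 21 to 27 and 15 to 20 for the same cell types. Of the 212 named results, DESeq2 kept 210 on their side of the threshold, RLE scaling 211 and the fit with no filter 190, and no direction changed in these. The replicate block kept 204, and the fit without the 8 libraries 163 of 183. On the deposited TPM scale 96 kept their call, 84 lost it and 32 were reversed. After TMM scaling of the TPM 147 kept it, 60 lost it and 5 were reversed. Leaving out 1 library at a time cost 51 of the 212 their call at least once. Few reads limit the CM values of Cxcl10 and Zbp1, which had 4 and 3 reads in all at Day 0.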

Other observations

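Single libraries stood at the edge of their group for most members at once. HC Day 1 replicate 4 was the highest of its group for 36 of 39 members, HC Day 3 replicate 4 for 28, EC Day 14 replicate 4 the lowest for 33 and FB Day 7 replicate 2 the lowest for 29.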
